A study of Oryza sativa with 3 samples.

Results

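Fragments of tRNA-Lys, tRNA-Asn and tRNA-Ile were followed in 3 deposited lists of tRNA-derived small RNAs from developing rice pollen. The members are all listed sequences whose tRNA carries the anticodon CTT or TTT (tRNA-Lys), GTT or ATT (tRNA-Asn), or AAT, TAT or GAT (tRNA-Ile). They numbered 1077 distinct sequences of 18424 over the 3 lists. The uninucleate microspore list (UNM) held 262 of them among 5477 sequences, the bicellular pollen list (BCP) 817 among 14717, and the tricellular pollen list (TCP) 383 among 8633. All samples were pollen of the cultivar Guichao No.2 of Oryza sativa grown in the field, without any treatment or mutation named in the labels, and spores of the 3 stages were separated on a sucrose gradient. Each stage is 1 library of small RNA, described in the labels as 13 to 40 nt for UNM and 13 to 41 nt for BCP and TCP. The lists summed to 686685 reads in UNM and 4958412 in BCP. The TCP numbers lie between 1 and 28 and were used only for which sequences are listed.

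A tRNA folds into an acceptor stem that carries the amino acid, a D arm, an anticodon arm and a T arm, and cuts in these loops leave fragments that are stable enough to be sequenced. Fragments that begin at the mature 5′ end, inner fragments, and fragments that run to the 3′ end are usually told apart, and cuts in the anticodon loop split a tRNA into a 5′ and a 3′ piece. After transcription the bases CCA are added to the 3′ end of a plant tRNA, where the amino acid is attached. tRNA-Lys, tRNA-Asn and tRNA-Ile deliver lysine, asparagine and isoleucine to the ribosome, and plant cells hold nuclear, plastid and mitochondrial versions of such tRNAs. Which of these genomes a fragment came from was not assigned here.

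The sequences below carry the main findings on tRNA-Lys, and are given 5′ to 3′ as the deposited lists spell them, with T for U. Capitals mark the landmark that placed a fragment on the tRNA, in the standard numbering of tRNA positions. These are positions 8 to 14 for a 5′ fragment, a run of the D arm that begins at position 18 for a D-arm fragment, and positions 53 to 58 for a T-arm fragment. Bases of 5′ and D-arm fragments were numbered 1 by 1 from there, so an extra base in the D loop shifts the numbers after it. Fragments without capitals were placed because they lie wholly inside a longer fragment that has a landmark. The first 5 are fragments that run to the 3′ end and start at positions 37 to 40, the next pair are short pieces that were most abundant in UNM, and the last 3 are a 5′ fragment and the 2 leading D-arm fragments.
Lys 39 to 73: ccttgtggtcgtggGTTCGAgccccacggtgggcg
Lys 39 to 74: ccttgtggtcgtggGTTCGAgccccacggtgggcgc
Lys 40 to 73: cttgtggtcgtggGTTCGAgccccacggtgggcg
Lys 37 to 75, ending in cc: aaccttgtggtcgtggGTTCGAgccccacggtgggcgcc
Lys 37 to 75, ending in ca: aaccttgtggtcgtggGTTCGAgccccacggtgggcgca
Lys 61 to 73: cccacggacggcg
Lys 44 to 56: tggtcgtgggttc
Lys 1 to 31: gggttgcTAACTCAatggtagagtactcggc
Lys 15 to 32: gtcGGTAGAacgcaaggc
Lys 13 to 32: cagtcGGTAGAgcgcaaggc

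For tRNA-Asn and tRNA-Ile the most abundant 5′ fragments, leading inner fragments, a short piece of the acceptor end of tRNA-Ile and the leading long 3′ fragments are shown in the same way.
Asn 1 to 13: gctggagtagctc
Asn 1 to 17, first form: gctggagTAGCTCAgtt
Asn 1 to 17, second form: gctggaaTAGCTCAgtt
Asn 39 to 52: ccacaaggtcggag
Asn 39 to 73: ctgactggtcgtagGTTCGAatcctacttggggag
Ile 1 to 23: ggcctatTAGCTCAgctggttag
Ile 12 to 24: tcagctGGTTAGA
Ile 41 to 56: cgaaggtcgcaggttc
Ile 59 to 72: gacctgcatgggcc
Ile 40 to 72: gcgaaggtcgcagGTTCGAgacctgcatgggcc
Ile 40 to 73: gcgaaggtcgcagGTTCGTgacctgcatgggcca

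The 3 groups together held 733 reads in UNM, 0.107% of the list, and 5777 reads in BCP, 0.117% of the list. tRNA-Lys held 551 reads in UNM and 4321 in BCP, tRNA-Asn 67 and 611, and tRNA-Ile 115 and 845. The groups were selected on these read numbers in UNM and BCP, so their low level is a description. In both libraries tRNA-Asn had the fewest reads of the 20 amino acid groups and tRNA-Ile the next fewest, but tRNA-Trp, with 247 and 2041 reads, came before tRNA-Lys. Just outside lay tRNA-Thr with 1562 and 22213 reads. tRNA-Lys therefore belongs to the 4 smallest groups rather than to the 3 smallest.

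The share of each group in the list was nearly the same in both stages. tRNA-Lys made up 0.0802% of UNM (95% exact Clopper-Pearson interval 0.0737% to 0.0872%) and 0.0871% of BCP (0.0846% to 0.0898%), a ratio of 1.09 (0.994 to 1.19). tRNA-Asn made up 0.00976% (0.00756% to 0.0124%) and 0.0123% (0.0114% to 0.0133%), a ratio of 1.26 (0.980 to 1.65). tRNA-Ile made up 0.0167% (0.0138% to 0.0201%) and 0.0170% (0.0159% to 0.0182%), a ratio of 1.02 (0.837 to 1.25). Intervals of ratios are exact conditional binomial 95% intervals. All intervals here cover counting error only, since reads that carry no molecular identifier cannot be counted as separate molecules, and with 1 library per stage there is no replicate spread and no test between stages. A difference is called when the ratio is at least 2-fold and its interval excludes 1. By this rule none of the 3 groups was called, while of all 20 groups 6 were higher in BCP (30%) and 3 were lower (15%). The share is relative to the other fragments: with tRNA-Asp left out of the totals, a group that was itself 29.4-fold higher in BCP, the ratios on the log2 scale were 0.75 for tRNA-Lys, 0.97 for tRNA-Asn and 0.66 for tRNA-Ile, against 0.12, 0.34 and 0.03 with it. With the 10 most abundant sequences of either library left out, all 3 were below 0 at -0.30, -0.079 and -0.39.

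The few reads stand beside many genes. In a RefSeq annotation of a Japonica rice assembly, which is not the cultivar sampled, 32 genes are named as tRNA-Lys, 31 as tRNA-Asn and 25 as tRNA-Ile. These 88 genes are 13.5% of 651 named tRNA genes, while the groups held 0.107% and 0.117% of reads. In UNM there were 17.2 reads per gene for tRNA-Lys, 2.16 for tRNA-Asn and 4.60 for tRNA-Ile, against 1055 over all groups. In BCP there were 135, 19.7 and 33.8 reads per gene, against 7617 over all groups. tRNA-Asp, with 33 genes, about as many as tRNA-Lys and tRNA-Asn, held 8479 reads in UNM and 1798750 in BCP, the most of any group there. Low reads per gene were not particular to the members. tRNA-Trp, with 20 genes, had 12.35 reads per gene in UNM and 102 in BCP, below tRNA-Lys, and tRNA-Thr had 40.1 and 570. Since the members were selected for few reads, their reads per gene are a description too.

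Within the groups the isoacceptors differed, that is the tRNAs of 1 amino acid with different anticodons. tRNA-Lys CTT held 325 reads in UNM and 3113 in BCP, a ratio of 1.33 (1.18 to 1.49). tRNA-Lys TTT held 226 and 1208 reads, a ratio of 0.740 (0.642 to 0.857). The pair thus moved in opposite directions, and TTT was lower still, at 0.551 (0.475 to 0.641), without the 5′ fragments that begin gggttgctaactc. The CTT ratio rests on the 39-nt fragments described below: without sequences of 39 nt or more it was 0.865 (0.768 to 0.978), against 0.734 (0.636 to 0.849) for TTT. All tRNA-Asn members carried GTT. Among the tRNA-Ile members, AAT held 99 and 811 reads, a ratio of 1.13 (0.920 to 1.41), and TAT held 16 and 34 reads, a ratio of 0.294 (0.158 to 0.571). No sequence of any list carried ATT or GAT. For each, 3 counts would be a share of 0.000437% in UNM and 6.05e-05% in BCP. The annotation likewise names 0 genes for ATT and 0 for GAT. The anticodon is the authors' label, and 13 member sequences were listed under more than 1 anticodon, 4 of them under more than 1 amino acid. They held 3.82% of member reads in UNM and 1.63% in BCP.

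Most reads of tRNA-Lys and tRNA-Ile came from the T arm and the 3′ end, while most reads of the lists as a whole were 5′ fragments. tRNA-Asn was mixed, with 16.4% of its reads in UNM and 17.8% in BCP in the inner T arm, and 35.8% and 28% between the D arm and the anticodon arm. This last class holds all fragments placed on the 5′ or D-arm side that start past position 3. In BCP it includes 41 tRNA-Asn reads that start at position 4, before the D arm. Fragments that begin at the 5′ end held 3.81% of tRNA-Lys reads in UNM and 7.82% in BCP, 29.9% and 16.7% of tRNA-Asn reads, and 10.4% and 13.3% of tRNA-Ile reads. Over all listed reads the same share was 86.8% in UNM and 87.6% in BCP. Fragments that reach position 71 or beyond, in the last bases of the acceptor stem, held 44.6% of tRNA-Lys reads in UNM (40.4% to 48.9%) and 64.0% in BCP (62.5% to 65.4%). For tRNA-Ile they held 29.6% (21.4% to 38.8%) and 34.7% (31.5% to 38%), and for tRNA-Asn 7.46% (2.47% to 16.6%) and 22.6% (19.3% to 26.1%). Over all listed reads they held 0.619% and 0.949%. The 3 groups, with 0.107% and 0.117% of all reads, therefore held 6.70% (5.97% to 7.50%) and 6.79% (6.57% to 7.02%) of the reads that reach the 3′ end.

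Of the groups with the next fewest reads in both libraries together, tRNA-Trp and tRNA-Thr likewise had few 5′ reads and many reaching the 3′ end. tRNA-Arg did not. The likeness stops there: fragments between the D arm and the anticodon arm held 42.1% and 42.7% of tRNA-Trp reads in UNM and BCP. They held 0.704% and 0.212% of tRNA-Thr reads, against 16.9% and 18.3% for tRNA-Lys and 15.7% and 2.96% for tRNA-Ile. In tRNA-Arg 5′ fragments held 66.7% of reads in UNM and 56.6% in BCP. Its fragments reaching the 3′ end held 3.51% and 7.53%. By the share of reads reaching the 3′ end, tRNA-Lys stood the highest of the 20 groups in UNM, followed by tRNA-Thr at 31.4%, tRNA-Ile, and tRNA-Trp at 25.9%. In BCP tRNA-Thr led with 84.5%, followed by tRNA-Lys, tRNA-Trp at 35.8%, tRNA-Ile and tRNA-Asn. The shares depend on how short fragments are placed: counting only fragments that hold the T-arm landmark, the 3′ share in UNM was 29.6% for tRNA-Lys and 7.83% for tRNA-Ile. The first base of the reads differed from the lists too. C began 55.2% of tRNA-Lys reads in UNM and 42.6% in BCP, against 1.30% and 4.59% over all listed reads, which began with G in 77.7% and 77.8%.

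The 3′ fragments of the 2 libraries differed in their mix of kinds. Short pieces of the acceptor end, which start at position 57 or later, made up 33.7% of them for tRNA-Lys in UNM and 1.63% in BCP, and 70.6% and 2.39% for tRNA-Ile. For tRNA-Asn they were 3 of 5 reads in UNM and 31.9% in BCP. Long fragments that start in or just past the anticodon loop made up 94.5% of these reads in BCP for tRNA-Lys, 80.2% for tRNA-Ile and 66.7% for tRNA-Asn. The short acceptor-end pieces of tRNA-Lys held 83 reads in UNM and 45 in BCP, a ratio of shares of 0.0751 (0.0510 to 0.109). Those of tRNA-Ile held 24 and 7 reads, a ratio of 0.0404 (0.0147 to 0.0966). Those of tRNA-Asn held 3 and 44 reads, a ratio of 2.03 (0.651 to 10.2), too few in UNM to show a direction. The same pieces of all other amino acids were lower too, and held 2809 and 2213 reads, a ratio of 0.109 (0.103 to 0.115).

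Long 3′ fragments are those of 30 nt or more that start at positions 34 to 41, between the anticodon and the 3′ strand of the anticodon stem. They held 155 tRNA-Lys reads in UNM and 2613 in BCP, a ratio of 2.33 (1.98 to 2.76). For tRNA-Ile they held 5 and 235 reads, a ratio of 6.51 (2.75 to 20.2). For tRNA-Asn they held 1 and 92 reads, a ratio of 12.7 (2.23 to 509). In all 3 groups the long 3′ fragments were higher in BCP, from very few reads in UNM for tRNA-Asn and tRNA-Ile. Those of all other amino acids were higher as well, with 920 and 32203 reads and a ratio of 4.85 (4.54 to 5.18), above that of tRNA-Lys. The tRNA-Lys ratio rests on the longest reads: without sequences of 39 nt or more, 145 and 1458 reads were left, a ratio of 1.39 (1.17 to 1.66), which is no longer called. Without them the ratio was 9.00 (1.56 to 361) for tRNA-Asn, 7.10 (2.73 to 26.3) for tRNA-Ile and 4.55 (4.25 to 4.88) for the other amino acids. As a share of the group they were 28.1% and 60.5% for tRNA-Lys, 1.49% and 15.1% for tRNA-Asn, and 4.35% and 27.8% for tRNA-Ile.

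The inner fragments went separate ways. T-arm fragments that stop before position 71 held 184 and 401 tRNA-Lys reads, a ratio of 0.302 (0.253 to 0.361), but 35 and 383 tRNA-Ile reads, a ratio of 1.52 (1.07 to 2.21). Fragments between the D arm and the anticodon arm held 93 and 790 tRNA-Lys reads, a ratio of 1.18 (0.948 to 1.47), and 18 and 25 tRNA-Ile reads, a ratio of 0.192 (0.101 to 0.374). For tRNA-Asn neither kind was called, on few reads in UNM. It had 11 and 109 T-arm reads at a ratio of 1.37 (0.737 to 2.83), and 24 and 171 D-arm reads at 0.987 (0.641 to 1.58). In BCP tRNA-Lys thus had the lower share of inner T-arm reads and tRNA-Ile that of D-arm reads, and no test of that difference was possible. Over all other amino acids the ratio was 0.765 (0.751 to 0.778) for inner T-arm fragments. For those between the D arm and the anticodon arm it was 1.07 (1.06 to 1.08).

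Fragments of all 3 groups were longer in BCP. Reads of 30 nt or more made up 29.2% of tRNA-Lys reads in UNM (25.5% to 33.2%) and 68.5% in BCP (67.0% to 69.8%). They made up 2.99% (0.364% to 10.4%) and 17.7% (14.7% to 20.9%) of tRNA-Asn reads, and 8.70% (4.25% to 15.4%) and 33.4% (30.2% to 36.7%) of tRNA-Ile reads. In UNM 13 nt was the commonest length in each of the 3 groups. In BCP it was 39 nt for tRNA-Lys, 17 nt for tRNA-Asn and 16 nt for tRNA-Ile, and the median length went from 15 to 34 nt, from 14 to 18 nt and from 15 to 23 nt. Over all listed reads the share of 30 nt or more was 4.04% in UNM and 50.8% in BCP, a wider gap than in any of the 3 groups. Ranked by this share, tRNA-Lys was number 4 of 20 in both libraries, tRNA-Asn number 16 in UNM and 18 in BCP, and tRNA-Ile number 11 and 15.

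Each list has a gap in its lengths just below the longest one. UNM holds no sequence of 38 or 39 nt and ends at 40 nt, BCP holds none of 38 nt and ends at 39 nt, and TCP holds none of 39 nt and ends at 40 nt. tRNA-Lys stood out at that last length. In BCP 1156 of its reads, 26.8% (25.4% to 28.1%), were of 39 nt, against 0.578% over the whole list, and all 1156 reach the 3′ end. They were 4.03% of all 39-nt reads of that library, from a group with 0.0871% of its reads. tRNA-Asn had 27 reads of 39 nt in BCP, 4.42% of the group, and tRNA-Ile 30 reads, 3.55%. In UNM 10 tRNA-Lys reads were of 40 nt, 1.81% of the group. Without the longest length of each list, the share of tRNA-Lys reads of 30 nt or more was 27.9% in UNM and 56.9% in BCP, and the log2 ratio of the group was -0.30. How the lists came to end in this way was not tested.

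The most abundant tRNA-Lys start was position 39, at the first base past the anticodon loop, from which a ladder of ends ran. The 34-nt form ending at position 72 had 8 reads in UNM and 187 in BCP, a ratio of 3.24 (1.61 to 7.61). The 35-nt form ending at position 73, the last base before the CCA tail, had 25 and 462 reads, a ratio of 2.56 (1.71 to 4.0). The 36-nt form ending at position 74 had 34 and 326 reads, a ratio of 1.33 (0.931 to 1.95). The shorter 2 forms were thus higher in BCP, the longer one was not called, and the leading form passed from 36 nt in UNM to 35 nt in BCP. A 37-nt form had 4 reads in UNM and 0 in BCP. The 16-nt piece from the same start, which stops in the T loop, had 14 and 62 reads, a ratio of 0.613 (0.340 to 1.19). One base further on, at position 40, the 34-nt form ending at position 73 had 1 and 107 reads, a ratio of 14.8 (2.60 to 591). The TCP list holds the 34-nt, 35-nt and 36-nt forms, the 37-nt form, the 16-nt piece and the form from position 40.

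tRNA-Lys fragments that start at position 39 came in 4 sequence forms, told apart by their first 5 bases. The form ccttg held 108 of 197 such reads in UNM, 54.8% (47.6% to 61.9%), and 1122 of 1271 in BCP, 88.3% (86.4% to 90.0%). The form ccacg held 57 reads in UNM, 28.9% (22.7% to 35.8%), and 84 in BCP, 6.61% (5.31% to 8.12%). The form ccgtg held 21 and 23 reads, and ccatg 11 and 42. The start as a whole kept its share of the list, at a ratio of 0.893 (0.768 to 1.04), while its forms parted. Against the totals of the lists, ccttg had a ratio of 1.44 (1.18 to 1.77), ccacg 0.204 (0.144 to 0.291), ccgtg 0.152 (0.0803 to 0.288) and ccatg 0.529 (0.268 to 1.14). The first 5 bases are the 3′ strand of the anticodon stem, and the lists do not name the genes behind each form.

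The 39-nt reads of tRNA-Lys were mostly long 3′ fragments that start before position 39. Starts at position 37, in the anticodon loop, held 3 of 246 reads reaching the 3′ end in UNM, 1.22% (0.252% to 3.52%), and 901 of 2765 in BCP, 32.6% (30.8% to 34.4%). The 3 leading sequences of this start had 380, 320 and 186 reads in BCP and 0 in UNM, a length that the UNM list does not hold, so no ratio is given. They share positions 37 to 73 and differ at positions 74 and 75, ending in cc, in ca and in at where the first bases of the CCA tail lie. Of the 914 tRNA-Lys reads in BCP that end at position 75, 392 had CC at positions 74 and 75, 320 had CA and 186 had AT. All reads with CA or AT were of 39 nt. Below 39 nt, 12 of 13 reads ending at position 75 in BCP and 7 of 7 in UNM had CC, and 1 in BCP had AC. The endings CA and AT were thus seen only at the longest length of BCP. How the reads were trimmed is not given, and the part of trimming in these endings was not tested. Starts at position 36 with 131 reads and at position 35 with 78 reads gave further 39-nt sequences in BCP that end at positions 74 and 73. All 5 of these sequences had 0 reads in UNM and none is in the TCP list, which holds no 39-nt sequence.

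Of the tRNA-Lys reads that reach the 3′ end, those ending at position 73 were 54.1% in UNM and 31.9% in BCP. Those ending at position 74 or 75 were 24.0% and 55.8%. The BCP reads include 1156 of 39 nt, a length that UNM does not list. Of those ending at position 75 in BCP, 380 of 392 with CC, all 320 with CA and all 186 with AT were of 39 nt. The shares without that length were not computed, so the contrast of ends cannot be read apart from it. For tRNA-Lys 0 of 246 reads in UNM and 0 of 2765 in BCP ended at position 76 in CCA. For tRNA-Ile 0 of 34 and 0 of 293 reads did so, and for tRNA-Asn 0 of 5 and 0 of 138. For tRNA-Lys the lengths in the lists leave little room for such ends. From position 39, the main start of tRNA-Lys, an end at 76 needs 38 nt, which neither library lists, and from position 37 it needs 40 nt, beyond the longest of BCP. Starts from which an end at 76 would have a listed length held 109 of the 246 tRNA-Lys reads in UNM and 507 of the 2765 in BCP. They held 31 of 34 and 188 of 293 tRNA-Ile reads, and 5 of 5 and 75 of 138 tRNA-Asn reads, which left more room. Placement sets a further limit, since pieces without a landmark were placed only inside a longer fragment that has one. A short piece that runs past the end of those fragments stayed unplaced and outside these counts. The counts of 0 thus do not show that such ends were absent. Some tRNA-Ile fragments do end in the letters cca, as the form from 40 to 73 above, but these are positions 71 to 73 and not the added tail. Reads ending at positions 71 to 73 made up 79.9% of the tRNA-Ile reads reaching the 3′ end in BCP and 68.1% of those of tRNA-Asn.

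A second change in tRNA-Lys was at the 5′ end. Fragments that begin gggttgctaactc, all under the anticodon TTT, had 2 reads in UNM and 317 in BCP, a ratio of 22 (6.03 to 182). The BCP reads spread over 14 sequences of 18 to 35 nt, and 85.2% of them were of 30 nt or more, so they end in the anticodon arm. The 31-nt form shown above had 2 and 110 reads, a ratio of 7.62 (2.06 to 63.7). The 30-nt form had 54 reads in BCP and the 34-nt form 51, both with 0 in UNM. At a floor of 3 counts their ratios were 2.49 and 2.35, with lower interval limits of 1.96 and 1.85. TCP lists 13 sequences of this start, from 24 to 40 nt. Another 5′ start under tRNA-Lys, gcccgtctagctc, went the other way with 15 and 8 reads, a ratio of 0.0739 (0.0271 to 0.186).

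The D-arm fragments of tRNA-Lys held a like contrast between sequence forms. Those with the letters GTAGAAC, all under TTT, had 8 reads in UNM and 318 in BCP, a ratio of 5.50 (2.76 to 12.9). Those with GTAGAGC had 80 and 412 reads, a ratio of 0.713 (0.560 to 0.918). The 18-nt fragment from position 15 to 32 shown above, of the former kind, had 2 and 112 reads, a ratio of 7.76 (2.10 to 64.8). The 20-nt fragment from 13 to 32, of the latter kind, had 3 and 58 reads, a ratio of 2.68 (0.872 to 13.4). Both are in the TCP list and both stop at position 32, the first base of the anticodon loop.

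Several short tRNA-Lys pieces had more reads in UNM than in the much deeper BCP library. The 13-nt acceptor-end piece from 61 to 73 had 31 reads in UNM and 10 in BCP, a ratio of 0.0447 (0.0195 to 0.0935). Pieces that begin 1 base earlier with tcccacggacggc had 19 and 1 reads, a ratio of 0.00729 (0.000175 to 0.0459). The 13-nt piece from 44 to 56 had 24 and 0 reads. At a floor of 3 counts its ratio was 0.0173, with an upper interval limit of 0.0230. With longer fragments of the same start it had 33 and 27 reads, a ratio of 0.113 (0.0655 to 0.194). The TCP list holds neither the 13-nt piece from 61 to 73 nor that from 44 to 56. Short pieces were a feature of UNM as a whole, where the commonest length over all listed reads was 16 nt and 4.04% of reads were of 30 nt or more.

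tRNA-Asn had no abundant sequence in either library. Its leading sequence had 8 reads in UNM, the 13-nt piece from position 1, which had 2 in BCP. In BCP the leading sequence was the first 17-nt form from the same start, with 47 reads there and 1 in UNM, a ratio of 6.51 (1.11 to 262). All fragments of this start had 17 and 64 reads, a ratio of 0.521 (0.302 to 0.95), so the start did not gain while its length moved from 13 nt to 17 nt. The second 17-nt form had 0 and 21 reads, and TCP lists both 17-nt forms. Fragments beginning tcagtagctcagt, which start at position 4, had 0 reads in UNM and 41 in BCP. At the floor their ratio was 1.89, with a lower interval limit of 1.47.

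The 3′ side of tRNA-Asn showed 2 sequence forms. The form beginning ctgactggtcgta at position 39 had 1 and 32 reads, a ratio of 4.43 (0.740 to 180), and all 32 were of 30 nt or more. Its 35-nt sequence shown above had 0 and 16 reads. The form beginning ccacaaggtcgga at the same position had 0 and 29 reads. Its ratio at the floor was 1.34, with a lower interval limit of 1.02. Only 4 of the 29 reads were of 30 nt or more. The former was thus read as long 3′ fragments and the latter mostly as short pieces, led by that from 39 to 52 with 18 reads in BCP. Unplaced sequences made up 10.4% of tRNA-Asn reads in UNM and 14.9% in BCP, more than the 1.27% and 0.625% of tRNA-Lys.

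tRNA-Ile was led in BCP by fragments that start at positions 39 to 41 of AAT tRNAs. Those starting at position 41 had 2 and 151 reads, a ratio of 10.5 (2.84 to 87.1). Those starting at position 40 had 3 and 146 reads, a ratio of 6.74 (2.26 to 33.1), and those at position 39 had 6 and 122, a ratio of 2.82 (1.26 to 7.82). The starts lie next to each other but their ends differed. From position 41, 112 of the 151 reads were 1 sequence of 16 nt that stops at position 56 in the T loop, and 13 were of 30 nt or more. From position 40, 121 of the 146 reads were of 30 nt or more, led by the 33-nt and 34-nt forms shown above with 25 reads each in BCP and 0 in UNM. The 16-nt sequence had 1 read in UNM, a ratio of 15.5 (2.73 to 618), and TCP lists it.

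The other leading tRNA-Ile fragments were 1 from the 5′ end and short pieces that were more frequent in UNM. The 23-nt 5′ fragment had 1 and 100 reads, a ratio of 13.8 (2.43 to 552), and TCP lists it. All fragments of that start had 8 and 111 reads, a ratio of 1.92 (0.942 to 4.56). The 13-nt piece from 12 to 24 led in UNM with 12 reads, and had 8 in BCP, a ratio of 0.0923 (0.0327 to 0.246). Fragments from position 59 beginning gacctgcatgggc, pieces of the acceptor end, had 14 and 3 reads. A further 13-nt sequence, tgcatgggccacc, could not be placed by the landmarks and had 7 and 8 reads.

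Few members had enough reads to be compared 1 by 1. Of 931 member sequences in UNM or BCP, 18 had at least 50 reads in both together: 16 of tRNA-Lys, 2 of tRNA-Ile and 0 of tRNA-Asn. By the rule above 15 were higher in BCP, 0 were lower and 3 were not called, where 68.2% of 1794 such sequences over the whole lists were higher and 17.2% were lower. A minimum of 50 reads over libraries of such unequal size favours sequences that are abundant in BCP, so the direction of these 18 is not a result about the groups. Among the 18, 7 had 0 reads in UNM, and 5 of those were of 39 nt, which UNM does not list. At a minimum of 20 reads, 19 of 49 members were higher and 8 were lower, against 44.1% and 18.1% over the lists, and at 10 reads 19 of 106 were higher and 16 lower, against 30.4% and 17.5%.

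The members were diverse for their number of reads. tRNA-Lys had 157 distinct sequences in UNM and 427 in BCP, tRNA-Asn 42 and 205, and tRNA-Ile 63 and 185. BCP is the deeper library: at the depth of UNM, BCP would be expected to show 146 for tRNA-Lys, 58.7 for tRNA-Asn and 56.4 for tRNA-Ile. Sequences read once made up 50.3% and 49.9% of the tRNA-Lys sequences, 69.0% and 54.1% of those of tRNA-Asn and 63.5% and 55.7% of those of tRNA-Ile, against 44.8% and 37.4% over the lists. No single sequence dominated. The top one held 6.17% of tRNA-Lys reads in UNM and 10.7% in BCP, 11.9% and 7.69% of tRNA-Asn reads, and 10.4% and 13.3% of tRNA-Ile reads. Over the lists 50% of reads lay in 6 sequences in UNM and in 9 in BCP, while it took 18 and 9 sequences for tRNA-Lys, 11 and 28 for tRNA-Asn and 15 and 12 for tRNA-Ile.

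Presence in tricellular pollen was lower for the members than over the lists. TCP lists 84 of the 262 UNM members, 32.1%, and 220 of the 817 BCP members, 26.9%, against 55% and 41.9% over all sequences. For tRNA-Lys it lists 56 of 157 and 114 of 427, for tRNA-Asn 8 of 42 and 55 of 205, and for tRNA-Ile 20 of 63 and 51 of 185. Sequences in all 3 lists were 46 of 543 for tRNA-Lys, 4 of 295 for tRNA-Asn and 17 of 239 for tRNA-Ile, in all 6.22% of members against 14.6% of all sequences. Presence goes with read number. Of members with at least 10 reads TCP lists 9 of 12 from UNM, 75%, and 61 of 88 from BCP, 69.3%, against 86.0% and 81.2% over the lists. In turn 146 of the 383 members in TCP were in neither other list, 38.1%, against 24.9%. The depth of TCP is not known, so an absence there does not show that a fragment was not made.

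TCP listed all the kinds of fragment of the earlier stages, but their shares of the distinct sequences differed among the lists. Fragments that reach the 3′ end were 23% of the tRNA-Lys sequences in TCP, 24.8% of those of tRNA-Asn and 34.2% of those of tRNA-Ile, against 13.8% over that list. In UNM they were 36.9%, 11.9% and 28.6%, and in BCP 27.9%, 22% and 30.3%. Long 3′ fragments from positions 34 to 41 numbered 34, 58 and 30 sequences of tRNA-Lys in UNM, BCP and TCP, 1, 19 and 17 of tRNA-Asn, and 4, 28 and 21 of tRNA-Ile. Acceptor-end pieces from position 57 or later numbered 19, 20 and 5 for tRNA-Lys, 3, 24 and 8 for tRNA-Asn and 9, 6 and 2 for tRNA-Ile. 5′ fragments were 9.09%, 9.40% and 3.80% of the TCP sequences of the 3 groups, against 24.0% over the list.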

How the data were processed

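Small RNA libraries from 3 stages, 1 per stage, were used as 3 lists. The authors deposited a count of reads per distinct sequence with its anticodon, per the file headers, with no normalization. Per the submitters' processing notes, the tool was Bowtie 1.1.2, with its reference, build, trimming and options not given in the sources used here. The TCP number column is of another kind than reads and served for presence only.

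Members were taken by anticodon, and shares were of each list's total. Shares have Clopper-Pearson and ratios exact conditional binomial 95% intervals, with a 0 set to 3 counts in a ratio. Sequences with at least 50 summed reads were compared over the whole lists, with 20 and 10 as alternatives. A 5′ fragment holds, at mature positions 8 to 14, T, a purine, any base, a pyrimidine, any 2 bases and A, from a start at position 1 to 3. The T-arm landmark is GTTC, a purine, and A or T. The D-arm landmark is GGT, an optional T, and AGA. A D-arm landmark near the first base takes precedence over a 5′ one. Placement by these landmarks and by exact containment, and values without sequences of 39 nt or more, were added after the values were seen. By the motif of positions 8 to 14 alone, which was planned, 5′ fragments were 2.72% and 8.54% of tRNA-Lys reads, 22.4% and 16.7% of tRNA-Asn reads and 10.4% and 13.1% of tRNA-Ile reads in UNM and BCP.

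Named sequences were, per amino acid, the 3 most abundant of each library after reduction to 1 per first 13 nt, those with the largest rise or fall at 50 summed reads, and the lengths of the most abundant start. Other starts, sequence forms and the leading long 3′ fragments were chosen after their values were seen. The members and lists were chosen with earlier results of these data known. Computations used Python 3.11.15, numpy 2.4.6, scipy 1.17.1 and pandas 2.3.3, and were tested on simulated data. No figure is given since the members are sequences.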

Additional observations from a re-analysis of the deposited data

How the results depend on the processing

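No paired analysis was possible because each stage is 1 library. Of 106 recomputed values, 47 stayed within their counting interval or within 1.5 times for a count, and 59 moved. Changes of direction were not counted. The log2 ratios of tRNA-Lys, tRNA-Asn and tRNA-Ile, none of them called, did change sign in some settings. Settings that leave out the longest length of each list, and those for the 3′ end, were chosen after seeing the data. The causes of the changes below were not tested.

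The log2 ratios of tRNA-Lys, tRNA-Asn and tRNA-Ile were 0.75, 0.97 and 0.66 without tRNA-Asp in the totals, -0.30, -0.079 and -0.39 without the 10 most abundant sequences, and 0.71, 4.66 and 1.93 among sequences with at least 10 reads in a library. For tRNA-Lys it was -0.53 at 33 nt or less and -0.30 without the longest length. The percentage of reads of 30 nt or more, in UNM and BCP, among sequences with at least 10 reads was 36.2 and 78.4 for tRNA-Lys, 0 and 22.4 for tRNA-Asn, and 26.3 and 40.1 for tRNA-Ile. Among sequences of 33 nt or less it was 4.41 and 23.2 for tRNA-Lys, and in BCP 6.85 for tRNA-Asn and 16.3 for tRNA-Ile. By distinct sequences it was 24.8 and 23.2 for tRNA-Lys, and in BCP 14.1 for tRNA-Asn and 27.6 for tRNA-Ile. The rise of this percentage in tRNA-Lys was thus in reads and not in distinct sequences. Distinct tRNA-Lys sequences of 20 nt or less did go from 67.5% to 53.4%, and those of 21 to 29 nt from 7.64% to 23.4%. Without the top sequence the percentage of reads of 30 nt or more was 24.6 and 64.7 for tRNA-Lys and 38.5 in BCP for tRNA-Ile. Without the longest length it was in BCP 56.9 for tRNA-Lys and 13.9 for tRNA-Asn.

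Distinct sequences with at least 2 reads numbered 78 and 214 for tRNA-Lys, 13 and 94 for tRNA-Asn, and 23 and 82 for tRNA-Ile, and BCP thinned to the UNM total gave 146, 58.7 and 56.4. Of sequences with at least 10 reads, TCP lists 8 and 37 for tRNA-Lys, 0 and 9 for tRNA-Asn, and 1 and 15 for tRNA-Ile. Single members lower in BCP numbered 8 at a minimum of 20 reads and 16 at 10. The 5′ motif among sequences with at least 10 reads was in 0.671% of tRNA-Lys reads in UNM, 100% and 42.6% of tRNA-Asn reads in UNM and BCP, and 5.26% and 19% of tRNA-Ile reads. With starts at position 1 alone it was in 7.66% of tRNA-Lys reads in BCP. The share reaching the 3′ end by the landmark alone was 29.6% for tRNA-Lys and 7.83% for tRNA-Ile in UNM, and 15.4% for tRNA-Asn and 30.5% for tRNA-Ile in BCP. Without the longest length it was 50.8% for tRNA-Lys and 19% for tRNA-Asn in BCP.

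Depth limits tRNA-Asn the most: its 67 reads in UNM leave intervals over which most of its single differences cannot be told. With 1 library per stage, stage and library cannot be told apart.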
